A study of Mus musculus with 16 samples.

Results

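The first kilobases downstream of gene starts, beyond the promoter, were examined in endosteal mesenchymal stromal cells, which line the inner bone surface. The method was chromatin immunoprecipitation and sequencing (ChIP-seq) of 4 histone marks. For part of the genes this stretch runs past the end of the gene or holds a further gene start. The authors' table holds 200 bins of 50 bp around the start of each gene, and the last 80 bins of a gene, lying 1 to 5 kb downstream of its start, are called its gene body start here. The members were chosen by position and chromosome alone, and they are the gene body starts of the 3789 autosomal genes among 3925 in the table. Cells came from cKO mice (Prx1-cre;Bap1fl/fl) and from WT mice (Bap1fl/fl), all C57BL/6J. Both groups carry the floxed Bap1 alleles and differ by the Cre transgene, whose Prx1 regulatory sequence is active in limb bud mesenchyme and the cells derived from it. The sources used here give neither age nor sex. Each mark has 2 cKO and 2 WT libraries, 16 in all. Whether the 2 replicates of a group are different animals is not stated in the labels, and p-values below therefore rest on a spread that may be technical. Bap1 itself was not analysed here, so the deletion was not checked.

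BAP1 is a nuclear deubiquitinase that removes the single ubiquitin which Polycomb repressive complex 1 places on histone H2A (H2AK119ub1). H3K27me3, placed by Polycomb repressive complex 2, lies over silent developmental genes, often as a broad domain that runs from the promoter into the gene. H3K4me3 and H3K27ac mark active gene starts, and at strongly expressed or cell identity genes both can extend well past the start into the gene body, which is the stretch measured here.

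The table holds only genes that the authors marked UP or DOWN. Of the members, 1849 were marked UP and 1940 DOWN, and since the sources used here do not give the contrast behind the mark, shares of changed genes do not stand for the genome and counts by that mark are descriptions. The libraries held 1233909 to 9966252 counts over the autosomal windows, and because a read was counted in 3 neighbouring bins these stand for 413035 to 3326053 reads. A gene body start had a median of 92 to 295 counts, depending on the library. Replicates of every group differed by more than sampling noise, with a chi-square of 2.02 to 3.05 per degree of freedom over the gene body starts. For H3K4me3 and H3K27ac the title and the antibody field of a library disagree, each naming the other mark, and the title is followed below. The libraries titled H3K4me3 held more of their counts in the central 2 kb, at 66.1% in cKO and 58.9% in WT cells, while those titled H3K27ac had 48.5% in cKO and 44.0% in WT cells. Of 7 mesenchymal stromal markers 4 were among the members, Cxcl12, Pdgfrb, Ly6a and Thy1. In WT cells H3K4me3 was 314 and 302 counts scaled to library size (CPM) at Cxcl12 and 454 and 428 CPM at Pdgfrb, against a median member of 29.3 CPM. Thy1 lay under that median. Of 8 haematopoietic, 4 endothelial and 3 osteoclast markers, the members hold only Cd34 and Ctsk.

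Some gene body starts hold another gene start, and there the window includes a promoter. The RefSeq gene starts of GRCm38.p6 placed 1 or more starts inside 302 windows. In 94 of them a later start of the gene itself was found, and in 215 a start was counted as that of another gene. Where a window matched no gene name, any start in it was counted as another gene's, so the 215 can include later starts of the gene itself. The 6 promoters printed here were chosen after their values were seen, 3 from windows in which H3K4me3 was higher in cKO cells and 3 from windows in which it was lower, to show the inner promoters of windows at both ends of the H3K4me3 changes. Each runs from 250 bases before to 50 bases after the annotated start, 5′ to 3′ on the gene's strand, and capitals mark CG dinucleotides. The Kctd15 start (chr7:34654349-34654648, minus strand) lies 1.11 kb inside the Kctd15 window's gene start, that of Kcnk10 (chr12:98575078-98575377, minus strand) 3.18 kb inside, that of Efna1 (chr3:89279596-89279895, minus strand) 1.5 kb inside and that of Pparg (chr6:115362099-115362398, plus strand) 1.40 kb inside. The starts of Ebf1 (chr11:44619978-44620277, plus strand) and Cd80 (chr16:38458683-38458982, plus strand) lie 2.91 kb and 3.37 kb inside the windows of ENSMUSG00000057098 and ENSMUSG00000075122. These windows carry a gene ID only, so whether each start is a later start of the window's own gene was not determined.
Kctd15: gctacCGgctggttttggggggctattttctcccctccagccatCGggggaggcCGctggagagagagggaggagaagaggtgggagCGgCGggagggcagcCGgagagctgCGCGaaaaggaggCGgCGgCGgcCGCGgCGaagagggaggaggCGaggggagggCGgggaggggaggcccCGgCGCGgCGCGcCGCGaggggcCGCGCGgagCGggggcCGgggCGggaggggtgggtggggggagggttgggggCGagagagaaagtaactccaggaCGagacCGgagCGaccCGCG
Kcnk10: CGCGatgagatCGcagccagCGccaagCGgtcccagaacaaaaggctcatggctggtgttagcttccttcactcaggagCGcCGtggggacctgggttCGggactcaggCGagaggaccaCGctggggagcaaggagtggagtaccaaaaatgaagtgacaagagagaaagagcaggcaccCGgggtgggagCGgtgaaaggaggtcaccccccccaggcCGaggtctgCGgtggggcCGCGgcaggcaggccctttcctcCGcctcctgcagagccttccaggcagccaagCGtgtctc
Efna1: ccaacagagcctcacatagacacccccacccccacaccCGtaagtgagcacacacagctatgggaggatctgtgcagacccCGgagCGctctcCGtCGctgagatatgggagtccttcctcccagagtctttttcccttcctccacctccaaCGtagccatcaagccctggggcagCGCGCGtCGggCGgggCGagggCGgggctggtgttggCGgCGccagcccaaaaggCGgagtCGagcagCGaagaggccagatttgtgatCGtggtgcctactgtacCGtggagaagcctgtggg
Pparg: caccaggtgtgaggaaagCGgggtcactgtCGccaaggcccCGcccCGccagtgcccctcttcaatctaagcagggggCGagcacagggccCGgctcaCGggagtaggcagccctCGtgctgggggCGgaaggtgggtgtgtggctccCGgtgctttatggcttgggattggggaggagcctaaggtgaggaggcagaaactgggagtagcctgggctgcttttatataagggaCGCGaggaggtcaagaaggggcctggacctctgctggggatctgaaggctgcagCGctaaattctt
Ebf1: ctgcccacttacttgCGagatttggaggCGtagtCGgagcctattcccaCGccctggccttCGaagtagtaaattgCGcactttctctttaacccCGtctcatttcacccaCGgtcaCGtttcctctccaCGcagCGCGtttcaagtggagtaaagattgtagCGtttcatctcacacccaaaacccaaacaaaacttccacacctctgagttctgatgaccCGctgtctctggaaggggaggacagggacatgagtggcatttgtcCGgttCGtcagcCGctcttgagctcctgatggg
Cd80: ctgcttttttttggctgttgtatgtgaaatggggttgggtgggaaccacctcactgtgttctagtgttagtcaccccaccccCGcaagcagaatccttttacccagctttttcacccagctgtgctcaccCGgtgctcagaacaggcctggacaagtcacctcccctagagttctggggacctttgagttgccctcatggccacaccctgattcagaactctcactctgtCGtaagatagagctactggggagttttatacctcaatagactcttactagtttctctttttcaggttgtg
The Kctd15 promoter holds 35 CG dinucleotides, Efna1 20, Kcnk10 18, Ebf1 17, Pparg 13 and Cd80 3, while the median of 32851 RefSeq promoters of the same length holds 7, with 1 at the 10th and 31 at the 90th percentile.

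In H3K4me3 the counts of the 300 bp around each of these 6 inner starts differed between the genotypes in the same direction as the window. The windows were chosen by their H3K4me3 change and the 300 bp lie within them, so this shared direction is not a separate result. At the inner start of Kctd15, a transcription regulator of the neural crest, H3K4me3 was 59.7 and 65.3 CPM in cKO cells against 7.25 and 2.42 CPM in WT cells, and H3K27me3 was 4.85 and 5.42 CPM against 22.4 and 27.2 CPM. At the inner start of Pparg, the nuclear receptor that directs adipocyte formation, H3K4me3 was 2.37 and 1.85 CPM in cKO cells against 55.3 and 57.9 CPM in WT cells, and H3K27me3 was 23.7 and 29.2 CPM against 5.17 and 12.4 CPM. Both genes therefore had non-overlapping groups in both marks, with the marks in opposite order. At the start of Ebf1, a transcription factor of B cells and of marrow stromal cells, H3K4me3 was 0.158 and 2.06 CPM in cKO cells against 40.1 and 51.7 CPM in WT cells. The window that holds it had an H3K4me3 log2 change of -3.16 ± 0.14 (SE) and the window of Kctd15 one of 3.88 ± 0.15. The windows of Kcnk10 and Efna1 changed by 3.02 and 1.87, and the window with the Cd80 start by -3.77. Over the 302 windows with an inner start, H3K4me3 was higher in cKO cells in 91 of 301 tested (30.2%) and lower in 95 (31.6%), whereas without one it was higher in 490 of 3452 (14.2%) and lower in 1359 (39.4%). The ratio of gene body start to upstream flank in H3K4me3 was 2.99 ± 0.0296 in cKO and 2.80 ± 0.0248 in WT cells over windows with an inner start, and 1.35 ± 0.0243 in cKO and 1.58 ± 0.0575 in WT cells over the others (SD, n = 2 each), so the order of the groups was opposite in the 2 kinds of window.

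Less of the H3K4me3 and H3K27ac signal lay 1 to 5 kb inside the gene in cKO cells, and less also lay 1 to 5 kb upstream. The upstream stretch held 13.5% of the H3K4me3 counts in cKO and 15.3% in WT libraries. For H3K27ac it held 23.9% in cKO and 25% in WT libraries, while for H3K27me3 it held more in cKO, 42.6% against 39.7%. The gene body starts held 20.4% ± 0.0689 of the H3K4me3 counts of a cKO library and 25.9% ± 0.688 of those of a WT library (SD, n = 2 each). For H3K27ac the share was 27.6% ± 0.228 in cKO and 31.0% ± 0.587 in WT cells, and for H3K27me3 36.6% ± 0.0568 in cKO and 38% ± 0.626 in WT cells. The groups did not overlap in these 3 marks, and the two-sided exact permutation test gave p = 0.33 for each, the lowest value it can give with 2 libraries a side. For H2AK119ub1 the share was 39.5% ± 0.203 in cKO and 39.8% ± 0.342 in WT cells, and the groups overlapped (exact permutation p = 0.667). In bulk samples, fewer cells carrying a mark and less of the mark per cell cannot be told apart.

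**Figure D1:**
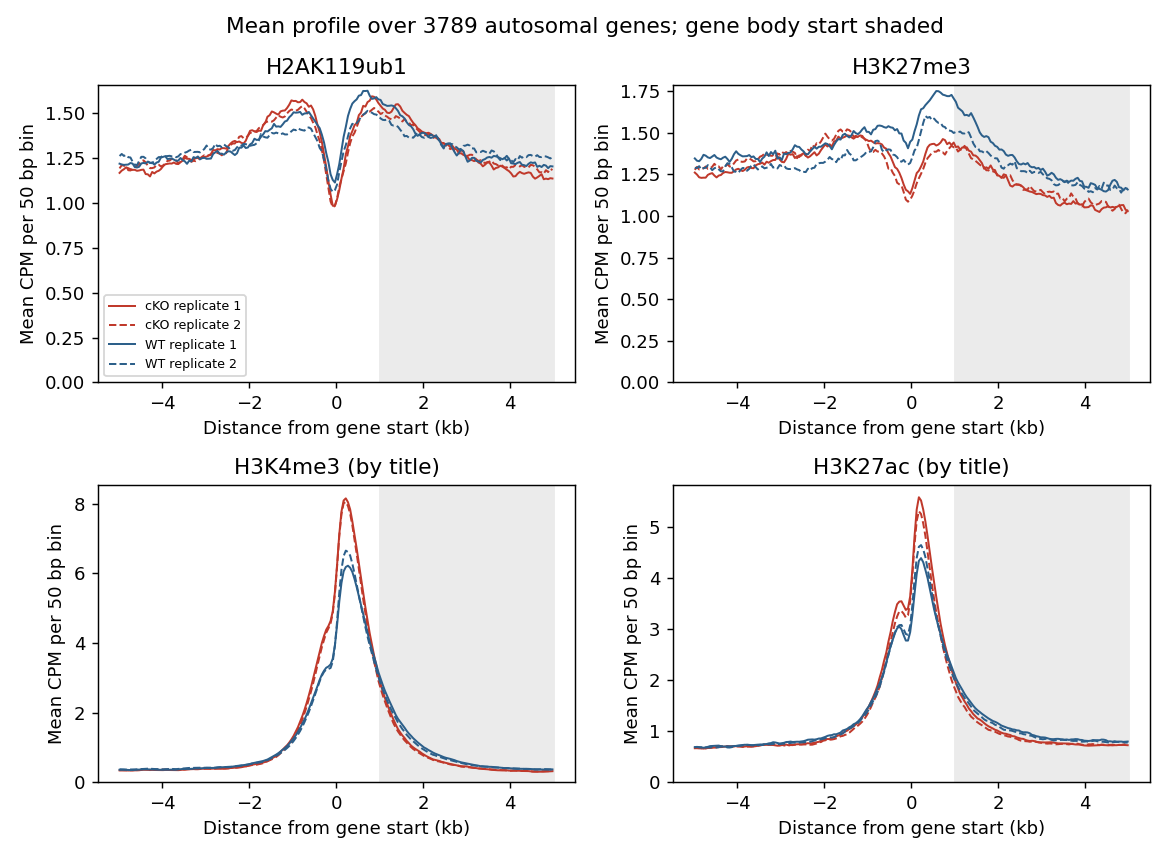
Mean CPM per 50 bp bin over 3789 autosomal genes against the distance from the gene start in kb, 1 line per library (cKO red, WT blue; replicate 1 solid, replicate 2 dashed), with the gene body start shaded. H3K4me3 and H3K27ac peak just inside the start and are higher there and lower beyond it in cKO libraries, so that cKO and WT lines cross near the edge of the shaded stretch; H3K27me3 lies lower in cKO over the whole shaded stretch.

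Within the 4 kb, the H3K4me3 deficit did not sit in 1 kilobase. From 1 to 2 kb inside, cKO libraries held 11.1% and WT libraries 13.8% of their counts. From 2 to 3 kb it was 4.19% in cKO and 5.62% in WT, from 3 to 4 kb 2.75% in cKO and 3.53% in WT, and from 4 to 5 kb 2.33% in cKO and 2.97% in WT libraries. The ratio of cKO to WT was 0.805, 0.746, 0.781 and 0.785 in these 4 kilobases, and the groups did not overlap in any of them. For H3K27ac the ratio was 0.886, 0.871, 0.901 and 0.909. H2AK119ub1 was the exception, since its groups overlapped from 1 to 3 kb and lay apart from 3 to 5 kb, with a share of 8.91% in cKO and 9.31% in WT cells in the last kilobase.

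Set against the upstream flank, which is the 4 kb lying 1 to 5 kb before the same starts, the genes marked UP and DOWN went opposite ways in the 2 active marks. For H3K4me3 the ratio of gene body start to flank was 1.56 ± 0.0331 in cKO and 1.22 ± 0.0181 in WT cells over genes marked UP, and 1.42 ± 0.00969 in cKO and 2.15 ± 0.0852 in WT cells over genes marked DOWN. For H3K27ac it was 1.14 ± 0.0208 in cKO and 1.04 ± 0.00763 in WT cells over genes marked UP, and 1.17 ± 0.00283 in cKO and 1.40 ± 0.00815 in WT cells over genes marked DOWN (SD, n = 2 each). H3K27me3 differed over genes marked UP, with 0.837 ± 0.0132 in cKO and 1.04 ± 0.00365 in WT cells, while over genes marked DOWN the groups overlapped at 0.876 in cKO and 0.886 in WT cells. In WT cells H3K4me3 thus reached further into the genes marked DOWN than into those marked UP, relative to the flank, and in cKO cells this order was turned round.

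**Figure D2:**
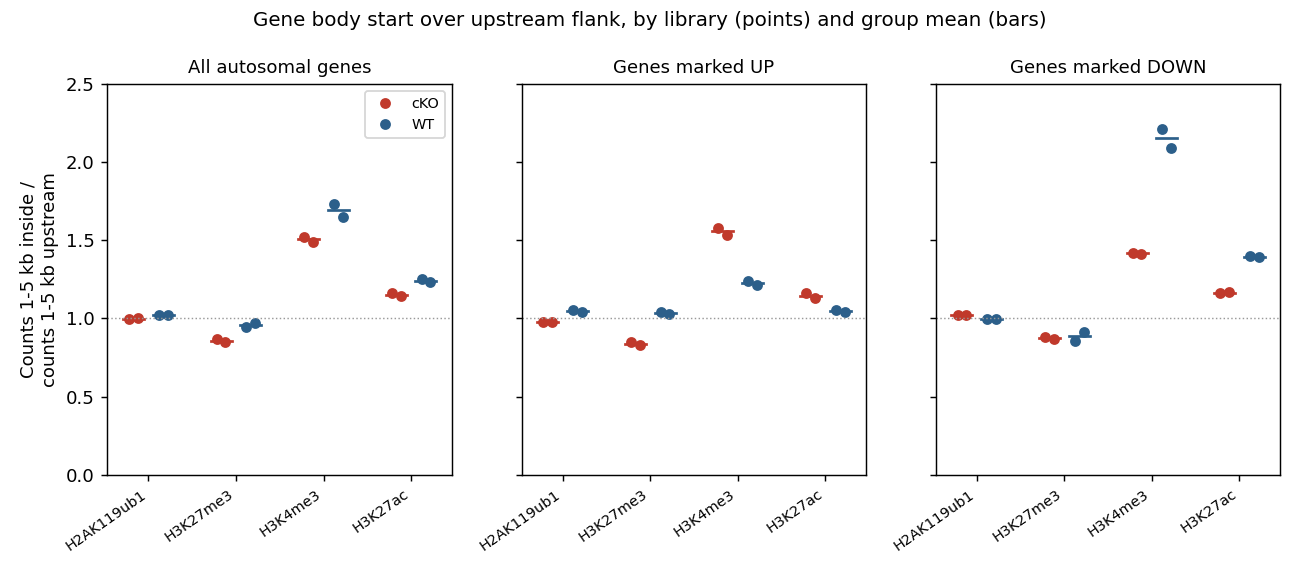
Counts 1 to 5 kb inside divided by counts 1 to 5 kb upstream (unitless), summed over all autosomal genes, genes marked UP and genes marked DOWN, with 1 point per library, a bar at the group mean, and cKO left of WT within each mark. The widest gap is that of H3K4me3 over genes marked DOWN, with a mean of 1.42 in cKO and 2.15 in WT libraries.

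H3K4me3 changed at more gene body starts than any other mark. With edgeR's quasi-likelihood test and Benjamini-Hochberg adjustment, 581 of 3753 tested rose in cKO cells and 1454 fell, which is 15.5% and 38.7%, or 54.2% called in all, and the median log2 change was -0.42. The balance depends on the scale, so a change here is relative to the whole 10 kb windows. With factors computed from the gene body starts themselves 980 rose and 954 fell, and the median became 0.03. In a fit of the upstream flank on the main scale the median H3K4me3 change was -0.37. The median difference between gene body start and flank was -0.10. H3K27ac rose at 675 of 3747 (18.0%) and fell at 978 (26.1%), 44.1% in all, with a median of -0.11. H3K27me3 rose at 278 of 3746 (7.42%) and fell at 453 (12.1%), 19.5% in all, and H2AK119ub1 rose at 395 of 3747 (10.5%) and fell at 444 (11.8%), 22.4% in all. For H3K27ac and H3K27me3 DESeq2 with its own size factors also evened the balance, to 752 higher and 707 lower for H3K27ac and 284 higher and 304 lower for H3K27me3. Of the genes marked UP, H3K4me3 rose at 567 and fell at 135 of 1831, and of those marked DOWN it rose at 14 and fell at 1319 of 1922. For H3K27ac, 655 rose and 79 fell of 1831 marked UP, and 20 rose and 899 fell of 1916 marked DOWN.

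**Figure D3:**
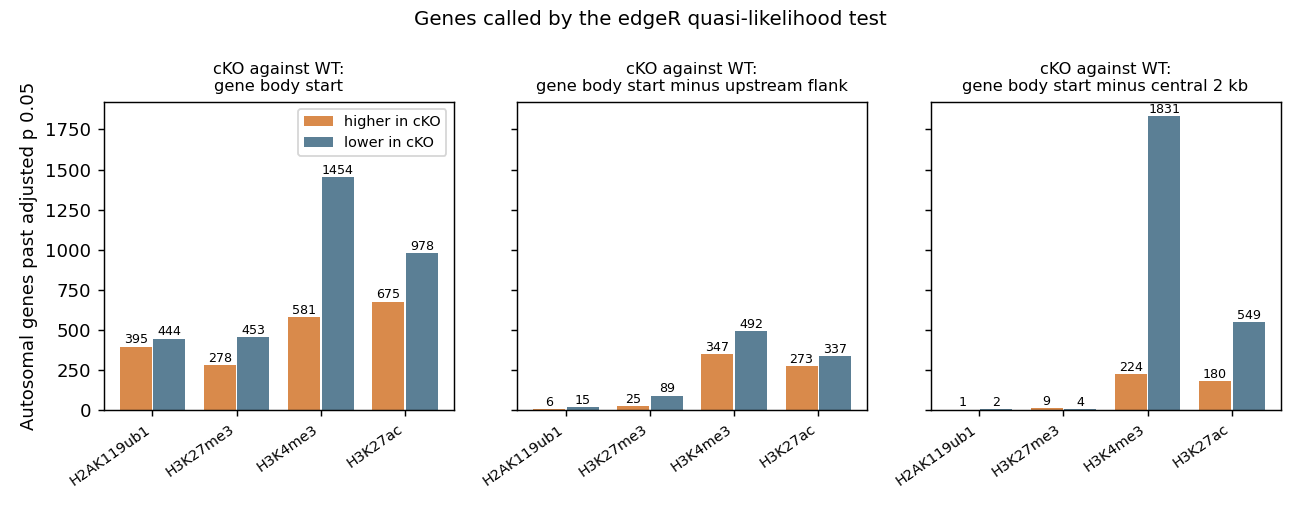
Number of autosomal genes past an adjusted p of 0.05 in edgeR's quasi-likelihood test, higher (orange) or lower (blue) in cKO, for the gene body start, for its difference from the upstream flank and for its difference from the central 2 kb. The largest bar is the 1831 genes whose H3K4me3 change was lower 1 to 5 kb inside than at the central 2 kb, which includes genes whose start rose more.

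The H3K4me3 gains of lowest p included several transcription factor genes with little H3K4me3 inside the gene in WT cells. Foxd1 (ENSMUSG00000078302, gene body start chr13:98355242-98359241 of GRCm38, plus strand), a forkhead transcription factor of kidney stroma and retina, had 663 and 636 CPM in cKO cells against 30.3 and 25.7 CPM in WT cells. Pax8 (chr2:24470600-24474599, minus strand), a paired-box factor of thyroid and kidney, had 659 and 639.6 CPM against 22.6 and 21.5 CPM. Mn1 (chr5:111418442-111422441, plus strand), a transcription coregulator needed for skull bone formation, had 703 and 677 CPM against 16.3 and 22.4 CPM. In all 3 the cKO libraries lay far above the WT libraries, and the log2 changes were 4.54 ± 0.14, 4.88 ± 0.14 and 5.14 ± 0.15 (SE), with edgeR adjusted p of 3.0e-29, 3.6e-30 and 3.6e-30. The gain reached the far end of the window: Mn1 had a mean of 196, 184, 168 and 142 CPM in cKO cells over the 4 successive kilobases, against 6.82, 3.88, 4.10 and 4.54 CPM in WT cells. In Pax8 it thinned out with distance, with 245, 189, 140.2 and 76.1 CPM in cKO cells against 6.95, 4.22, 7.92 and 2.94 CPM in WT cells. Irx1 (chr13:71958724-71962723, minus strand), an Iroquois homeobox factor, rose by 4.79 ± 0.17 and Gsc, the homeobox gene goosecoid, by 4.73 on the log2 scale. Sema3f, a secreted semaphorin of axon and vessel guidance, rose by 3.97 and Pgr, the progesterone receptor gene, by 4.16.

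The H3K4me3 losses of lowest p included a collagen gene, a regulator of fat cell formation and a Hox gene. Col1a2 (chr6:4506493-4510492, plus strand), which encodes a chain of type I collagen, had 16.5 and 16.9 CPM in cKO cells against 539 and 448 CPM in WT cells. Pparg (chr6:115361951-115365950, plus strand) had 18.7 and 17.8 CPM against 542 and 462 CPM. Hoxc13 (chr15:102922103-102926102, plus strand), a posterior HoxC gene, had 12.2 and 18.6 CPM against 474 and 464 CPM. Every cKO library lay far under every WT library at these 3 genes, and the log2 changes were -4.89 ± 0.15, -4.78 ± 0.15 and -4.90 ± 0.16, with edgeR adjusted p of 1.0e-28, 1.0e-28 and 8.2e-28. Along Col1a2 the 4 kilobases held 6.20, 6.53, 2.05 and 1.88 CPM in cKO cells against 169, 130.2, 98.2 and 96.3 CPM in WT cells, so the loss ran through the whole window. Col6a3, a chain of type VI collagen, fell by 4.10 on the log2 scale, and Pdgfrb, the PDGF receptor beta gene of perivascular stromal cells, had 22.6 and 32.0 CPM in cKO cells against 454 and 428 CPM in WT cells.

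At many genes H3K4me3 changed otherwise inside the gene than at its start. The change of the gene body start was tested against that of the central 2 kb, from 1 kb upstream to 1 kb inside, in the same libraries. The change was lower inside at 1831 of 3773 (48.5%) and higher at 224 (5.94%), with a median difference of -0.65. This test does not depend on the library scale. A lower change inside includes genes whose start rose more: of the 1831, 1024 fell in the gene body start itself and 135 rose there. In all, 54.5% were called. In a fit of the central 2 kb alone, on the same libraries and scale, 42.6% of all tested rose and 23.9% fell. Of the 1454 gene body starts that fell, 735 (50.6%) fell and 162 (11.1%) rose at the central 2 kb, and 1024 (70.4%) fell further inside than at the start. Of the 581 that rose, 502 (86.4%) rose at the central 2 kb. Irs1 (chr1:82286417-82290416, minus strand), an adaptor of the insulin receptor, had 279.7 and 282 CPM at its central 2 kb in cKO cells against 311 and 327 CPM in WT cells, but 49.5 and 61.2 CPM in its gene body start against 683 and 633 CPM. Its 4 kilobases held 38, 3.58, 4.06 and 9.73 CPM in cKO cells against 188, 151, 149 and 171 CPM in WT cells, and the difference from the start was -3.39 (edgeR adjusted p = 3.6e-29). Shox2 (chr3:66976772-66980771, minus strand), a homeobox gene of the proximal limb, had 43.2 and 40.3 CPM inside in cKO cells against 505 and 511 CPM in WT cells, with a difference from its start of -3.22. At both genes the genotypes lay far closer together at the start than inside.

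Among the 162 gene body starts that fell while the start rose, Itpripl2 and Mdm2 were picked after their values were seen. Mdm2, which encodes the ubiquitin ligase that restrains p53, had 160.3 and 149 CPM inside in cKO cells against 469 and 436 CPM in WT cells, and 544 and 503 CPM at the central 2 kb in cKO cells against 354 and 357 CPM. Itpripl2 had 47.5 and 40 CPM inside in cKO cells against 324 and 267 CPM in WT cells, and 252 and 230.1 CPM at the central 2 kb against 154 and 176 CPM. With factors from the gene body starts 71 of the 162 kept their call inside and 7 changed sign. The opposite, a rise inside with a fall at the start, was found at 9 genes, all marked UP. Irx2, a neighbour of Irx1 and also an Iroquois factor, had 266 and 267 CPM inside in cKO cells against 44.0 and 52.7 CPM in WT cells, while its central 2 kb had 219 and 209.9 CPM against 273 and 277 CPM. Cebpb, a transcription factor of early adipocyte formation, had 606 and 590.4 CPM in its gene body start in cKO cells against 346 and 368 CPM in WT cells. Inside means within the gene body start here, and for a short gene part of that stretch lies beyond the gene. Mn1 gained more inside than at its start, with 530.2 and 494 CPM at its central 2 kb in cKO cells against 161 and 138 CPM in WT cells and a difference of 3.36 (edgeR adjusted p = 4.3e-23). At Tmem223 the reverse was seen, since its central 2 kb had 242 and 214 CPM in cKO cells against 11.6 and 14.9 CPM in WT cells while its gene body start had 423 and 369.7 CPM against 453 and 447 CPM, with a difference of -4.28 (edgeR adjusted p = 9.8e-31).

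**Figure D4:**
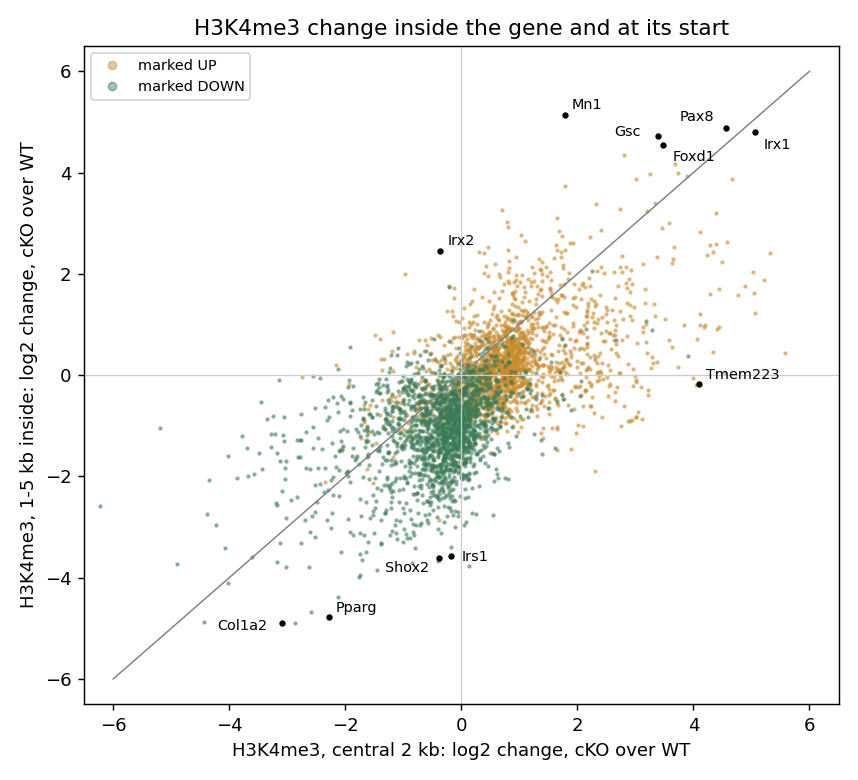
Each point is an autosomal gene marked UP (orange) or DOWN (green), with the H3K4me3 log2 change of cKO over WT at the central 2 kb on the x axis and 1 to 5 kb inside on the y axis, and a diagonal where both are equal. Irs1 and Shox2 lie near 0 on the x axis and below -3 on the y axis, Mn1 lies above the diagonal, and Tmem223 lies near 0 on the y axis at an x of about 4.

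H3K27ac followed H3K4me3 at most of the genes it changed. Of the 1454 gene body starts at which H3K4me3 fell, 865 also lost H3K27ac (59.5%, where 26.1% of all tested lost it), and these are 88.4% of the H3K27ac losses. Of the 581 at which H3K4me3 rose, H3K27ac rose at 382 (65.7%, where 18.0% of all tested gained it). Irx1 had 561 and 367 CPM of H3K27ac in cKO cells against 12.6 and 28.1 CPM in WT cells. Mn1 had 288 and 250.1 CPM against 20.4 and 23.1 CPM, a log2 change of 3.62 ± 0.24 (edgeR adjusted p = 6.4e-21), and Epha7, an ephrin receptor, had 476 and 376 CPM against 35.3 and 46.2 CPM. On the losing side, St3gal6, a sialyltransferase, had 18.9 and 13.0 CPM in cKO cells against 376 and 329.8 CPM in WT cells, a log2 change of -4.46 ± 0.25 (edgeR adjusted p = 5.0e-25). Col1a2 had 58.6 and 54.8 CPM against 531 and 451 CPM, and Shox2 had 38.1 and 31.3 CPM against 316 and 251 CPM. None of these 6 genes had overlapping groups. Set against its start, the H3K27ac change was lower inside at 549 of 3765 (14.6%) and higher at 180 (4.78%), with a median difference of -0.22, 19.4% in all. With any single library left out, cKO or WT, both counts were lower.

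Some gene body starts held their H3K27ac while the flank before the gene lost it. The change inside was larger than in the upstream flank at 273 of 3760 (7.26%) and smaller at 337 (8.96%), 16.2% in all. These counts were 147 and 181 without WT replicate 1, 156 and 185 without WT replicate 2, and 139 and 197 without cKO replicate 1. Foxc1 (chr13:31807633-31811632, plus strand), a forkhead factor needed for marrow niche cells, had 715 and 572 CPM inside in cKO cells against 508 and 506 CPM in WT cells, a log2 change of 0.34 that did not pass the test (edgeR adjusted p = 0.117). Its flank had 35.5 and 32.7 CPM in cKO cells against 307 and 275 CPM in WT cells, and the difference was 3.43 ± 0.25 (edgeR adjusted p = 4.2e-33). Hoxc10 (chr15:102967796-102971795, plus strand), a posterior HoxC gene, likewise had 176 and 139 CPM inside in cKO cells against 211 and 213 CPM in WT cells, and 42.8 and 61.6 CPM in the flank against 725 and 623 CPM. At both genes the flank lay apart between genotypes by far more than the gene body start, and H3K4me3 also differed, by 2.53 at Foxc1 and 2.60 at Hoxc10. Dio3, the deiodinase that inactivates thyroid hormone, went the other way with a difference of -2.98, since its flank gained more than the 42.8 and 44.3 CPM that cKO cells had inside against 18.3 and 26.8 CPM in WT cells. Glipr1 lost more H3K27ac inside than in its flank, with 69.6 and 76.7 CPM in cKO cells against 331 and 372 CPM in WT cells and a difference from the flank of -2.63. For H3K4me3 the same test called 347 of 3765 higher (9.22%) and 492 lower (13.1%), 22.3% in all, and 318 lower without WT replicate 1.

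H3K27me3 fell at some forkhead and homeobox genes and rose at others. Foxd1 had 47.9 and 71.9 CPM of H3K27me3 in cKO cells against 714 and 463 CPM in WT cells. Pax8 had 82.5 and 62.4 CPM against 721 and 496 CPM, and Foxf1, a forkhead factor of gut and lung mesenchyme, had 135 and 156 CPM against 923 and 744 CPM. Their log2 changes were -3.30 ± 0.30, -3.06 ± 0.29 and -2.52 ± 0.27 (edgeR adjusted p of 8.8e-11, 1.1e-10 and 3.3e-09), with every cKO library under every WT library. Sema3f fell by 2.83 on the log2 scale, Spry1, an inhibitor of growth factor signalling, by 2.80 and Tafa5, a secreted protein gene, by 3.04. On the gaining side, Foxa1 (chr12:57541122-57545121, minus strand), a forkhead pioneer factor of endoderm, had 473 and 538 CPM in cKO cells against 66.4 and 46.6 CPM in WT cells, a log2 change of 3.16 ± 0.29 (edgeR adjusted p = 8.8e-11). Eya4 (chr10:23344904-23348903, minus strand), a transcription coactivator and phosphatase, had 575 and 648 CPM against 75.9 and 86.2 CPM. Hoxc13 had 462 and 518 CPM against 87.1 and 97.9 CPM, Hoxc11 389 and 403 CPM against 89.6 and 94.0 CPM, and Maf, a bZIP transcription factor, 426 and 371 CPM against 77.6 and 70.7 CPM. At all 5 genes both cKO libraries lay above both WT libraries.

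At a small share of genes H3K27me3 changed otherwise inside the gene than before it. The change was lower inside than in the flank at 89 of 3768 (2.36%), and higher at 25 (0.663%), 3.03% in all. The lower ones were 59 without WT replicate 1, 50 without cKO replicate 1 and 47 without cKO replicate 2, and the higher ones 15 and 14 without the cKO replicates. Of the 453 gene body starts that lost H3K27me3, 147 (32.5%) also fell in a fit of the flank, where 6.78% of all tested fell, and 261 (57.6%) in one of the central 2 kb, where 10.5% fell. Irx1 had 55.8 and 38.6 CPM inside in cKO cells against 341 and 250.2 CPM in WT cells, while its flank had 215 and 248 CPM in cKO cells against 169.8 and 141 CPM in WT cells, a difference of -3.21 (edgeR adjusted p = 7.2e-06). Foxa1 gained H3K27me3 on both sides but more inside, since its flank had 401 and 484 CPM in cKO cells against 200 and 228 CPM in WT cells, a difference of 2.13. Against the central 2 kb the H3K27me3 change was higher inside at 9 of 3758 (0.239%) and lower at 4 (0.106%), 0.346% in all, and 384 had an unadjusted p under 0.05. Of the 9, 4 fell and 0 rose in the gene body start itself. Both counts were lower with either cKO replicate left out and higher with either WT replicate left out. The count of gene body starts that gained H3K27me3 was 157 without cKO replicate 1 and 152 without cKO replicate 2, and that of losses was 260 without cKO replicate 1 and 293 without cKO replicate 2.

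H2AK119ub1, the mark that BAP1 removes, rose at about as many gene body starts as it fell, and its levels varied little between genes. Counts are scaled to each library's own autosomal windows, so a gain or loss shared by all windows cannot be seen in this balance. The members had a median of 103 CPM in cKO and 102 CPM in WT cells and a 90th percentile of 146 CPM in cKO and of 159.9 CPM in WT cells. C1qtnf1 (chr11:118429499-118433498, plus strand), a secreted C1q-like protein, had 218 and 257 CPM in cKO cells against 89.0 and 87.2 CPM in WT cells, a log2 change of 1.43 ± 0.19 (edgeR adjusted p = 8.1e-05). Wincr1 (chr4:89051308-89055307, plus strand), a long non-coding RNA gene, had 165 and 146 CPM against 30.3 and 46.8 CPM, and Pak1, a kinase of cell motility, had 144 and 174 CPM against 58.2 and 49.8 CPM. Gata2 (chr6:88194891-88198890, plus strand), a haematopoietic and endothelial transcription factor, had 154 and 144 CPM in cKO cells against 311 and 313 CPM in WT cells, where it was the highest gene body start of all, and changed by -1.07 ± 0.17 (edgeR adjusted p = 0.000273). Ift27, a component of ciliary transport, had 42.2 and 40.6 CPM against 169 and 173 CPM, and Nphp4 (chr4:152477706-152481705, plus strand), a protein of the ciliary base, had 14.1 and 15.4 CPM against 72.2 and 98.5 CPM. The groups did not overlap at any of these 6 genes.

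Few H2AK119ub1 changes passed the test for a difference between the gene body start and the flank or the central 2 kb. In simulated counts the test against the flank recovered 37% of 2-fold differences, so differences of that size or less can be missed. Of the 395 that rose, 197 (49.9%) also rose in a fit of the upstream flank on the same libraries, where 13.6% of all tested rose, and of the 444 that fell, 194 (43.7%) fell there, where 11.4% of all tested fell. Against the flank the change was higher inside at 6 of 3763 (0.159%) and lower at 15 (0.399%), 0.558% in all, while 425 had an unadjusted p under 0.05. Both counts were lower with cKO replicate 1, cKO replicate 2 or WT replicate 1 left out, and higher without WT replicate 2. Tcim, a small protein of beta-catenin signalling, had 97.3 and 76.4 CPM inside in cKO cells against 163 and 208 CPM in WT cells and differed from its flank by -1.32 (edgeR adjusted p = 0.0171, and 0.169 without cKO replicate 2). Against the central 2 kb the change was higher inside at 1 of 3761 (0.0266%) and lower at 2 (0.0532%), 0.0798% in all, while 386 had an unadjusted p under 0.05. Both of these counts were lower with either cKO replicate left out and higher with either WT replicate left out. The counts of calls in the gene body start itself were 133 higher and 196 lower without cKO replicate 1, and 218 higher and 271 lower without cKO replicate 2.

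Whole chromosomes moved together in every mark, in the flank as in the gene body start. Over the 19 autosomes the median log2 change of the gene body start ran from -0.47 to 0.47 for H2AK119ub1 and that of the flank from -0.49 to 0.53, whereas the difference between them ran from -0.11 to 0.07. For H3K27me3 the gene body start ran from -0.65 to 0.40, for H3K4me3 from -1.06 to 0.22 and for H3K27ac from -0.66 to 0.62. With each chromosome's own flank median taken off, an alternative chosen after the data were seen, H2AK119ub1 rose at 109 and fell at 196 gene body starts, H3K27me3 rose at 183 and fell at 368, H3K4me3 rose at 454 and fell at 1448, and H3K27ac rose at 382 and fell at 818. C1qtnf1, Wincr1, Pak1, Gata2, Ift27 and Nphp4 kept their H2AK119ub1 calls on that scale, with log2 changes of 1.05, 1.49, 1.11, -0.71, -1.64 and -3.05. The 134 genes of chromosome X, which are not members, held 1.46% and 1.47% of the H2AK119ub1 counts in cKO libraries against 3.20% and 3.23% in WT libraries, and 1.35% and 1.33% of the H3K4me3 counts against 1.86% and 1.81%. The part of chromosome number, of the sex of the animals or of other differences between the samples in these shifts was not tested.

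Changes of the 4 marks were then set side by side at the same gene body starts. Of the 453 gene body starts that lost H3K27me3, H3K4me3 rose at 150 (33.1%, where 15.5% of all tested rose), H3K27ac rose at 106 (23.4%, where 18.0% of all tested rose) and H2AK119ub1 fell at 182 (40.2%, where 11.8% of all tested fell). Of the 278 that gained H3K27me3, H2AK119ub1 rose at 86 (30.9%, where 10.5% of all tested rose) and H3K4me3 fell at 133 (47.8%, where 38.7% of all tested fell). H3K27me3 fell while H3K4me3 and H3K27ac rose at 96 of the 3789 members, all marked UP. Of all gene body starts at which H3K4me3 rose, 567 were marked UP and 14 DOWN. Among the 96 were Foxd1, Gata2, Grem1, Gsc, Irx1, Jag1, Mn1, Nog, Pax8, Ror2, Sema3f, Slit2, Sox11 and Thpo. This set includes the secreted BMP antagonists Grem1 and Nog, the Notch ligand Jag1 and the guidance cue Slit2 beside transcription factors. The reverse was found at 86 members, 85 of them marked DOWN. Of all gene body starts at which H3K4me3 fell, 1319 were marked DOWN and 135 UP. Among the 86 were Bmi1, Cxcl1, Eya4, Foxa1, Hoxc11, Hoxc13, Kitl, Maf, Pparg, Vcam1, Wnt10b and Zfp423. H2AK119ub1 fell as well at 24 of the first set, including Gata2, Grem1, Jag1 and Thpo, where 11.8% of all tested fell. It rose as well at 28 of the second, including Cxcl1, Eya4, Foxa1 and Kitl, where 10.5% of all tested rose. At Foxa1 the H2AK119ub1 call ended relative to the chromosome (log2 0.42, edgeR adjusted p = 0.228). The names given here were picked after the values were seen.

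**Figure D5:**
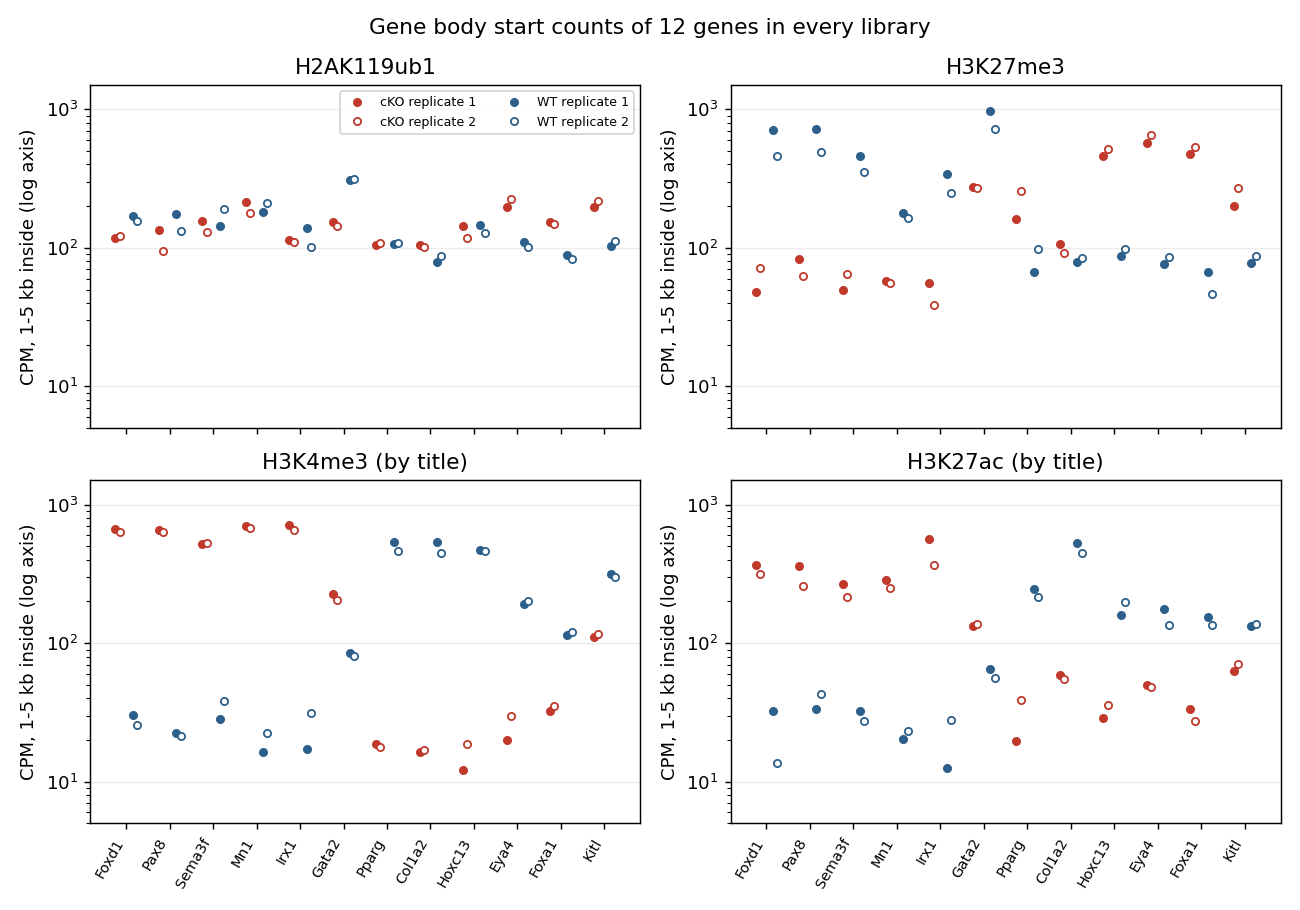
CPM of the gene body start on a log axis for 12 genes in each of the 16 libraries, 1 panel per mark, with cKO in red left of WT in blue and replicate 1 filled. Foxd1, Pax8, Sema3f and Irx1 are low in H3K27me3 and high in H3K4me3 and H3K27ac in cKO cells, Eya4, Foxa1 and Kitl show the reverse, and the H2AK119ub1 values of all 12 genes stay within a much narrower range.

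Of 14 genes of the blood stem cell niche measured, H3K4me3 fell at 9 and rose at 2 (median log2 change -1.15, against -0.42 over all tested), where 38.7% of all tested fell and 15.5% rose. H3K27ac fell at 8 and rose at 2 of them, where 26.1% of all tested fell and 18.0% rose. The authors marked 11 of the 14 DOWN and 3 UP. Of all tested genes marked DOWN, 1319 of 1922 fell in H3K4me3 and 899 of 1916 in H3K27ac. Kitl (chr10:100016630-100020629, plus strand), the stem cell factor that stromal cells present to blood stem cells, had 111 and 117 CPM of H3K4me3 in cKO cells against 314 and 299.9 CPM in WT cells, a log2 change of -1.43 ± 0.13 (edgeR adjusted p = 5.9e-13). Its start changed by only -0.08 (edgeR adjusted p = 0.383), and the difference between the 2 stretches passed the test at -1.35 (edgeR adjusted p = 6.3e-11). Its gene body start gained H3K27me3, with 200.3 and 269 CPM in cKO cells against 77.6 and 87.8 CPM in WT cells, and H2AK119ub1, with 198 and 217 CPM against 103 and 112 CPM (edgeR adjusted p of 5.9e-05 and 0.00139). Cxcl12 (chr6:117169574-117173573, plus strand), the chemokine that retains blood stem cells and lymphoid progenitors in marrow, had 75.2 and 95.2 CPM of H3K4me3 in cKO cells against 314 and 302 CPM in WT cells, a log2 change of -1.85 ± 0.14 (edgeR adjusted p = 1.6e-15). Its 4 kilobases held 72.1, 7.26, 1.86 and 3.97 CPM in cKO cells against 194, 75.2, 24.4 and 14.7 CPM in WT cells, and its H3K27me3 was 112 and 96.3 CPM in cKO against 107 and 96.3 CPM in WT cells. Cxcl12 and Kitl thus both lost H3K4me3 inside, while a gain of H3K27me3 passed the test at Kitl and not at Cxcl12 (edgeR adjusted p = 0.944), a contrast between genes that was not itself tested.

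Vcam1, the adhesion molecule of stromal cells, had 12.8 and 9.15 CPM of H3K4me3 in cKO cells against 97.5 and 90.1 CPM in WT cells, and Csf1, the macrophage growth factor, 198 and 216 CPM against 457 and 463 CPM. Thpo, which encodes thrombopoietin, had 226 and 206 CPM in cKO cells against 71.0 and 87.4 CPM in WT cells, and Jag1 had 259.7 and 235 CPM against 107 and 106 CPM, so these 2 ligands went against the 9 that fell. Both also lost H3K27me3, with 59.5 and 87.5 CPM in cKO cells against 266 and 249 CPM in WT cells at Thpo and 104 and 81.4 CPM against 312 and 255 CPM at Jag1. Of the 4 stromal markers, each of them marked DOWN, H3K4me3 and H3K27ac fell at Pdgfrb, Cxcl12 and Ly6a. The remaining one, Thy1, had 2.69 and 11.8 CPM of H3K4me3 in cKO cells against 6.44 and 16.4 CPM in WT cells, under the median member, and passed the test in neither mark (edgeR adjusted p of 0.335 for H3K4me3 and 0.55 for H3K27ac). The haematopoietic marker Cd34 had 22.3 and 16.4 CPM of H3K4me3 in cKO cells against 27.5 and 17.6 CPM in WT cells, near the median member, and the osteoclast protease gene Ctsk had 9.02 and 13.9 CPM against 30.9 and 31.0 CPM, under or near the median member. H3K27ac at Cd34 rose to 86.7 and 78.3 CPM in cKO cells, against 48.6 and 52.0 CPM in WT cells (edgeR adjusted p = 0.0142, and 0.0904 without cKO replicate 1). With these 2 markers alone, the part of other cell types in the changes was not tested.

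H3K4me3 fell at all 7 osteoblast genes measured, where 38.7% of all tested fell. The authors marked each of the 7 DOWN, and of all tested genes marked DOWN 1319 of 1922 fell. Besides Col1a2 they include Spp1, the matrix protein osteopontin, with 13.9 and 13.6 CPM in cKO cells against 87.6 and 75.6 CPM in WT cells, and Wnt10b, a Wnt ligand that favours bone over fat, with 23.3 and 26.2 CPM against 68.5 and 76.4 CPM. H3K27ac fell at 4 of the 7, where 26.1% of all tested fell. Col1a1, the other chain of type I collagen, differed from Col1a2: its H3K4me3 was 225 and 184 CPM in cKO cells against 308 and 265 CPM in WT cells, a log2 change of -0.49 ± 0.13 (edgeR adjusted p = 0.00109) that did not pass with DESeq2 (-0.03, adjusted p = 0.915), and its H3K27ac was 106 and 147 CPM against 169.9 and 119.8 CPM, with overlapping groups. Its H3K27me3 rose to 173 and 218 CPM in cKO cells, against 62.1 and 101 CPM in WT cells (edgeR adjusted p = 0.00101). Among 21 collagen and matrix genes H3K4me3 fell at 14 and rose at 5 (median log2 change -1.22), where 38.7% of all tested fell and 15.5% rose. H3K27ac fell at 12 and rose at 3 of them, where 26.1% of all tested fell and 18.0% rose. Of these 21 genes 16 were marked DOWN and 5 UP, and of all tested genes marked DOWN 899 of 1916 fell in H3K27ac. Col3a1, Col5a1, Col5a2, Col6a1, Col6a2 and Col6a3 fell in both marks, while Col11a1, a fibrillar collagen of cartilage, with 257 and 236 CPM of H3K4me3 in cKO cells against 66.2 and 77.9 CPM in WT cells, and Tnc, the matrix protein tenascin C, with 85.2 and 92.5 CPM against 29.8 and 33.1 CPM, rose in both.

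Of 7 adipocyte genes H3K4me3 fell at 5 and rose at Cebpb, and H3K27ac fell at the same 5, Pparg, Fabp4, Plin4, Cebpa and Lpl, where 38.7% of all tested fell in H3K4me3 and 26.1% in H3K27ac. The authors marked 5 of the 7 DOWN. Of all tested genes so marked, 1319 of 1922 fell in H3K4me3 and 899 of 1916 in H3K27ac. Fabp4, a fatty acid carrier of fat cells, had 7.28 and 11.6 CPM of H3K4me3 in cKO cells against 80.4 and 69.5 CPM in WT cells. Pparg gained H3K27me3, with 161 and 256 CPM in cKO cells against 67.2 and 98.7 CPM in WT cells, a log2 change of 1.32 ± 0.29 (edgeR adjusted p = 0.000622) that did not pass without cKO replicate 2 (0.97, adjusted p = 0.0644), and its H3K27ac was 19.7 and 39.2 CPM in cKO cells against 247 and 214 CPM in WT cells. Of 6 cartilage and tendon genes H3K4me3 rose at 2, Sox9 and Scx, and fell at 2, where 15.5% of all tested rose and 38.7% fell. Sox9, the master regulator of cartilage, had 182 and 185 CPM in cKO cells against 106 and 122 CPM in WT cells, but its log2 change of 0.69 ± 0.14 rested on the kilobase nearest the start, since over 2 to 5 kb it was -0.12 (edgeR adjusted p = 0.774). Scx, a tendon transcription factor, had 184 and 168 CPM against 64.6 and 59.4 CPM.

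Of 18 measured developmental transcription factors H3K4me3 rose at 8 and fell at 2 (median log2 change 0.46), where 15.5% of all tested rose and 38.7% fell, and H3K27ac rose at 8 and fell at 2, where 18.0% rose and 26.1% fell. The authors marked 11 of the 18 UP. Of all tested genes marked UP, 567 of 1831 rose in H3K4me3 and 655 of 1831 in H3K27ac. H3K27me3 fell at 8 and rose at 3 of the 18, where 12.1% of all tested fell and 7.42% rose, and H2AK119ub1 fell at 6 and rose at 1, where 11.8% fell and 10.5% rose. Both active marks rose at Gsc, Irx1, Irx2, Pax8, Gata2, Foxd1, Eya2 and Pitx1. Gata2 had 227 and 205 CPM of H3K4me3 in cKO cells against 85.4 and 81.4 CPM in WT cells, and 274 and 272 CPM of H3K27me3 against 967 and 721 CPM. Foxf1 lost its H3K27me3 with no H3K4me3 gain that passed the test, at 23.6 and 25.2 CPM in cKO cells against 15.1 and 24.6 CPM in WT cells. Of 6 Hox genes H3K4me3 fell at 5 and H3K27ac at 4, where losses also outnumber gains over all tested (38.7% fell in H3K4me3 and 26.1% in H3K27ac), and H3K27me3 rose at 2, Hoxc11 and Hoxc13. The authors marked 5 of the 6 DOWN, and of all tested genes so marked 1319 of 1922 fell in H3K4me3. Hoxc11 had 26.7 and 18.9 CPM of H3K4me3 in cKO cells against 212 and 237 CPM in WT cells.

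Of 21 Wnt pathway genes H3K4me3 rose at 7 and fell at 8, where 15.5% of all tested rose and 38.7% fell, so the losses are near the share over all genes. H3K27me3 fell at 5 of the 21 and rose at 0, where 12.1% of all tested fell and 7.42% rose. Ror2, a receptor for Wnt5a, had 218 and 200 CPM of H3K4me3 in cKO cells against 15.0 and 12.6 CPM in WT cells, with 87.4 and 46.8 CPM of H3K27me3 against 265 and 244 CPM. Daam2, a regulator of Wnt signalling at the cell cortex, lost H3K27me3, with 80.7 and 85.4 CPM in cKO cells against 325 and 260.3 CPM in WT cells, and lost H3K4me3 too, with 6.96 and 12.2 CPM against 20.8 and 26.3 CPM. Of 7 genes of the Polycomb machinery H3K27ac rose at 4 and fell at 2, where 18.0% of all tested rose and 26.1% fell. The authors marked 5 of the 7 UP, and of all tested genes so marked 655 of 1831 rose in H3K27ac. Bmi1, a core subunit of Polycomb repressive complex 1, had 100.2 and 83.9 CPM of H3K4me3 in cKO cells against 190.1 and 178 CPM in WT cells and 218 and 212 CPM of H3K27me3 against 69.0 and 69.9 CPM. Phf19, an accessory subunit of Polycomb repressive complex 2, had 47.9 and 69.2 CPM of H3K27me3 against 245 and 250.2 CPM, so the 2 genes lay on opposite sides. Of 3 elongation genes Hexim1, an inhibitor of the elongation kinase P-TEFb, rose in H3K4me3, H3K27ac and H2AK119ub1. Relative to the chromosome its H3K4me3 and H2AK119ub1 calls ended (edgeR adjusted p of 0.103 and 0.365), and over 2 to 5 kb both ended too (adjusted p of 0.388 and 0.158). H3K4me3 fell at all 3 housekeeping genes measured (38.7% of all tested fell), from -2.25 at B2m, the light chain of MHC class I, to -0.65 at Gusb, and at Gusb and Cfl1 the call ended with DESeq2 (adjusted p of 0.641 and 0.182). All 3 were marked DOWN, and of all tested genes so marked 1319 of 1922 fell in H3K4me3.

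Some windows run past the end of a short gene. Such genes were not singled out among those named above, where inside means within the gene body start. Of the 3221 members with a gene name, 463 ended before 5 kb, so that part of their window lies beyond the gene. H3K4me3 rose at 73 of 460 tested (15.9%) and fell at 141 (30.7%) among these, and rose at 409 of 2735 (15.0%) and fell at 1152 (42.1%) among the genes that reach past 5 kb. The medians were 21.1 and 22.5 CPM in cKO against 27.7 and 29.6 CPM in WT cells for the short genes, and 20.4 and 21.5 CPM in cKO against 31.3 and 30.3 CPM in WT cells for the long ones. The groups did not overlap in either set, and whether the share of losses differs between the sets was not tested. In H3K27ac 21.0% of the short and 28.0% of the long genes fell, and in H2AK119ub1 12.4% of the short and 11.3% of the long ones.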

How the data were processed

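Per the file headers, the values the authors deposited are raw whole-number counts of reads in 50 bp bins, for 16 libraries of 4 marks. Per the submitters' processing notes, the build was GRCm38 and the tools were bedtools 2.30.0, SAMtools 1.9, Picard 2.25.5, Bowtie2 2.4.5 and cutadapt 1.18, with no settings stated. Of isolated filled runs shorter than 4 bins, 98.68% spanned 3 bins, so summed counts hold each read about 3 times. The table gives Ensembl gene IDs only, and symbols were taken from RefSeq starts (GRCm38.p6) within 500 bp of the window's centre: 3221 of 3789 (85.0%) matched, against 111 (2.93%) after a shift of 20 kb. The 568 others carry their gene ID only.

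Counts of the last 80 bins of each gene were summed and tested in each mark with edgeR 4.0.16 (R 4.3.3; robust quasi-likelihood fit, genotype only, 2 cKO against 2 WT libraries, filterByExpr with a minimum count of 10), adjusted by Benjamini-Hochberg over all genes tested, at a threshold of 0.05. CPM are summed counts scaled to 1e6 autosomal counts, times TMM factors from autosomal 10 kb windows. Differences from the upstream flank and from the central 2 kb are region by genotype terms with the library as a block. Library shares were compared with exact permutation tests (SciPy 1.17.1). Standard errors are edgeR's, and intervals and errors cover these libraries only.

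The fits were tested on simulated counts with 200 changed genes: for the gene body start, 2-fold changes were recovered at 86% for H2AK119ub1, 34% for H3K27me3, 72% for H3K4me3 and 68% for H3K27ac, and for the difference from the flank at 37%, 13%, 23% and 31% in the same order. Of the simulated calls 2.6%, 1.5%, 6.5% and 3.4% were false for the gene body start and 6.2%, 7.4%, 6.2% and 3.1% for the difference from the flank, so some exceed the 5% threshold.

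The members, the gene lists and the alternatives were chosen with earlier results of these data known. Genes were named by rule (for each mark the 6 of lowest p in each direction with non-overlapping groups, the 4 and 3 for the differences from flank and centre, the 5 highest in WT, 3 of each list, and 6 fixed genes), apart from those said to have been picked after their values were seen. Same-numbered replicates of cKO and WT did not deviate together (correlation -0.0437 to 0.0859), so they were not paired. Alternatives were DESeq2 1.42.0, other scaling, filters, bins, stretches of the window, 1 fit over all libraries, a replicate block and leaving out each library. Input libraries and chromosome X were not used here beyond the X share. No genome of this build was used here, so the bins of highest count are not shown as sequence. Results for 2 genes are not reported here.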

Additional observations from a re-analysis of the deposited data

How the results depend on the processing

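Of 332 calls at named genes, 219 kept call and direction under each alternative that was run for them and 7 changed sign under some; the scaling, 1 to 3 kb and 16-library alternatives were run for 280 of the calls, those of the gene body start itself, and windows left out in an alternative have no value there. H2AK119ub1 at Pdgfrb was 0.01 counted over 1 to 3 kb. H3K4me3 over 2 to 5 kb was -0.17 at Tcim, -0.14 at Vldlr, -0.08 at Sh3rf3 and -0.12 at Sox9. H3K4me3 at Tsc22d2 and Fgf7 was 0.04 and 0.11 with DESeq2 and also with factors from gene body starts. The simulation recovered the fewest 2-fold changes in H3K27me3, and the part of depth in this was not tested.

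Counts of calls moved by over 1.5 times as follows, and the cause was not tested. For the gene body start over 2 to 5 kb, 215 rose in H2AK119ub1, 149 rose and 291 fell in H3K27me3 and 295 rose in H3K4me3, and over 1 to 3 kb 259 fell in H2AK119ub1 and 181 rose in H3K27me3. In 1 fit over 16 libraries 216 rose and 274 fell in H2AK119ub1, and 762 fell in H3K27me3. Relative to the chromosome 109 rose and 196 fell in H2AK119ub1, 183 rose in H3K27me3 and 382 rose in H3K27ac. In H3K4me3 DESeq2 called 875 higher and 857 lower, and factors from gene body starts 980 and 954. For the difference from the flank over 2 to 5 kb, 7 were lower in H2AK119ub1 and 43 in H3K27me3. In H3K4me3 144 were higher and 234 lower, and DESeq2 called 2 higher and 7 lower in H2AK119ub1. For the difference from the central 2 kb over 2 to 5 kb, 3 were higher and 7 lower in H2AK119ub1 and 16 higher in H3K27me3. For the same difference DESeq2 called 4 lower in H2AK119ub1 and 40 higher and 23 lower in H3K27me3.

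With the replicate block the gene body start had 443 higher and 482 lower for H2AK119ub1, 286 and 462 for H3K27me3, 611 and 1509 for H3K4me3, and for H3K27ac 701 and 1014, and against the central 2 kb 0 and 0 in H2AK119ub1 (edgeR, 353 at an unadjusted p under 0.05) and 32 and 15 in H3K27me3. The replicate numbers share no stated origin, and 4 named calls ended under the block.

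With 1 library left out, where the lone library is taken to vary like the other group, the gene body start had 133 to 338 higher and 196 to 360 lower for H2AK119ub1, 152 to 277 and 260 to 439 for H3K27me3, 491 to 527 and 1290 to 1430 for H3K4me3, and 525 to 602 and 662 to 900 for H3K27ac. Against the flank the ranges were 0 to 12 and 0 to 19, 14 to 30 and 47 to 67, 254 to 369 and 318 to 489, and 139 to 200 and 181 to 259 in the same order of marks, and against the central 2 kb 0 to 6 and 0 to 19, 0 to 26 and 0 to 33, 176 to 206 and 1463 to 1653, and 107 to 132 and 335 to 456. The difference in library share was -0.523 to -0.0389 percentage points for H2AK119ub1, -1.9 to -1.02 for H3K27me3, -6.0 to -5.03 for H3K4me3, and for H3K27ac -3.82 to -2.99.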

Other observations

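All 4 marks fell at 19 genes and rose at 10. Of all tested, 11.8% fell in H2AK119ub1, 12.1% in H3K27me3, 38.7% in H3K4me3 and 26.1% in H3K27ac. In the same order 10.5%, 7.42%, 15.5% and 18.0% rose. Whether the counts of 19 and 10 depart from these shares was not tested. H3K27ac inside the gene went against H3K27ac at the start at 15 genes that fell inside and rose at the start, and at 4 genes that rose inside and fell at the start. Among the 15, Afmid changed by -1.03 inside (edgeR adjusted p = 4.6e-05) and by 1.09 at the central 2 kb, and Itpripl1 by -1.35 inside (edgeR adjusted p = 2.0e-06) and by 1.21 at the central 2 kb. These names were picked after their values were seen.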
